A study of Rattus norvegicus with 60 samples.

Results

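The guide strands of the miR-30 family were followed through retinal ischemia and reperfusion in the rat. The members were all array features whose name is rno-miR-30 followed by a letter from a to e, with or without the suffix for the 5′ arm, and without the star that marks a passenger strand. This rule found 5 of the 350 rat miRs on the array, namely rno-miR-30a, rno-miR-30b-5p, rno-miR-30c, rno-miR-30d and rno-miR-30e, called miR-30a and so on here. The rule uses the names alone.

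The animals were male Long Evan's hooded rats of 250 to 300 g, and whole retinas were collected. In the ischemia-reperfusion (IR) groups, saline led into the anterior chamber of an eye held the pressure at 110 mmHg for 60 min, after which reperfusion lasted up to 7d, with collection at its start (0 h) and after 2, 24 or 48 h or 7d. Sham control rats received the same surgery and anesthesia without raised pressure and were collected at the same 5 times. Each of these 10 groups held 6 rats with 1 array per rat, so 60 arrays were available. All groups shared the pentobarbital anesthesia, the eye drops and the cannulation, and no group was left without surgery.

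A miR is cut from a hairpin precursor. Its guide strand is loaded into an Argonaute protein and finds messenger RNAs mainly through its seed, bases 2 to 8, while the passenger strand (marked * or -3p here) is usually degraded. Members of a family share the seed and can therefore bind many of the same transcripts. The miR-30 family is known from other tissues for restraining autophagy, through the autophagy gene Beclin 1, and for restraining the transition of epithelial to mesenchymal cells.

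The RefSeq mature sequences (rat build GRCr8) of 3 of the 5 guide strands are shown, because they show what the family shares and where its members differ. They are followed by miR-384-5p, which was the other miR of the array found to have the same seed. They run from 5′ to 3′, and the capitals mark the seed.
miR-30a: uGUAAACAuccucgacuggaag
miR-30c: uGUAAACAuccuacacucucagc
miR-30e: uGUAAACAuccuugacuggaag
miR-384-5p: uGUAAACAauuccuaggcaaugu

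The seed GUAAACA was held by 4 of the 693 mature miRs in the RefSeq table, which are the 4 shown. The table held no mature sequence for miR-30b-5p and miR-30d, so this count says nothing about their seed. By name, 102 of the 350 array miRs matched this table. Counted from 1 at the 5′ end, miR-30a and miR-30e differed at 1 of 22 bases (C13U, miR-30a first). MiR-30c differed from miR-30a at 5 of 22 bases, C13A, G14C, G18C, G19U and A20C. The first 12 bases were the same in the 3 miR-30 sequences. In miR-384-5p, the sequence already left that of miR-30a at base 9.

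The hairpin of Mir30a (GRCr8, chr9:33233941-33234011, plus strand) is shown because guide and passenger strand come from the same precursor. The capitals mark the guide strand and then the passenger strand.
Mir30a hairpin: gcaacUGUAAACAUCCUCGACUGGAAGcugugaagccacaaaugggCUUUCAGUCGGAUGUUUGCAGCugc

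In GRCr8 the 6 miR-30 hairpin genes formed 3 pairs on 3 chromosomes. Mir30c1 (chr5:139634455-139634543) and Mir30e (chr5:139637450-139637541) lay 2.9 kb apart within the span of Nfyc, which encodes a subunit of the transcription factor NF-Y. Mir30b (chr7:102021543-102021629) and Mir30d (chr7:102025345-102025426) lay 3.7 kb apart within a long non-coding RNA gene, LOC102551574. Mir30a and Mir30c2 (chr9:33253682-33253765) lay 19.7 kb apart. The sequence of miR-30c is the same from Mir30c1 and Mir30c2, so its signal could not be assigned to either gene.

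Each guide strand was measured by 2 probes of 10 spots that end at the 3′ end of the miR. The probes of miR-30a covered 15 and 16 bases (rn4, chromosome 9, 22142900 to 22142915) and those of miR-30e covered 16 and 17 bases (rn4, chromosome 5, 141365169 to 141365185). The probes of miR-30d were shorter, with 13 and 14 bases (rn4, chromosome 7, 105819769 to 105819782). Base 13, the only position at which miR-30a and miR-30e differ, lay inside the probes of both, and binding of each to the probes of the other was not tested.

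All 5 guide strands were detected on all 60 arrays, against 57 of the 350 miRs. Detection is the flag of the Feature Extraction software, and signals are given as log2 of the total signal of a miR after scaling each array to its 75th percentile over these 57 miRs. Before scaling, IR arrays were dimmer than sham control arrays, with a mean log2 75th percentile of 8.27 ± 0.57 for IR at 24 h, where sham control had 10.43 ± 0.35, and 8.16 ± 0.47 for IR at 7d, where it had 10.74 ± 0.24 (SD, n = 6). It was 9.26 ± 0.85 against 10.45 ± 0.30 at 48 h, 9.34 ± 0.89 against 10.40 ± 0.49 at 0 h and 9.84 ± 0.58 against 9.80 ± 0.41 at 2 h (SD, n = 6). IR and sham control arrays shared no range of this brightness at 24 h and 7d. At 24 h it ran from 7.40 to 8.83 in IR and from 9.92 to 10.71 in sham control. At 7d it ran from 7.27 to 8.54 and from 10.46 to 11.15. A fit with brightness as a covariate therefore cannot tell IR from brightness at these times. The 3 scan days held equal numbers of both treatments, whereas no slide held both treatments of the same time point. The retinal neuron markers miR-124, miR-9, miR-183, miR-96 and miR-182 were detected on all 60 arrays. The summed log2 signal of the 4 leukocyte markers on the array lay between 5.42 and 6.97 in IR and between 4.63 and 5.11 in sham control at 24 h, but 3 of the 4 were detected on no IR array at this time, and the other, miR-223, on 1 of 6. These sums did not overlap at 48 h (5.25 to 6.96 against 4.64 to 5.09) and 7d (5.55 to 6.69 against 4.63 to 5.12) either, where again 3 of the 4 were detected on no IR array. For the 4 muscle markers, of which miR-206 was detected on 57 of 60 arrays, the sum was 7.24 to 8.19 in IR against 5.85 to 6.35 in sham control at 24 h and 6.83 to 7.48 against 5.81 to 6.41 at 7d. The others were rarely detected, miR-1 on 11, miR-133b on 7 and miR-133a on 0 of 60 arrays. At 24 h and 7d, 3 of the 4 muscle markers were detected on no IR array. The muscle sums were also apart at 2 h (6.505 to 9.12 against 5.48 to 6.36) and overlapped at 0 h and 48 h. The part of these markers in the results was not tested. In whole retinas, fewer cells of a type and less RNA per cell cannot be told apart.

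At no time point did a guide strand reach a 2-fold difference between IR and sham control. Over the 25 comparisons (5 miRs at 5 times), the log2 fold change, IR minus sham control, lay between −0.38 and 0.28, which is 0.768 to 1.22 times the sham control level. The 95% confidence intervals reached from −0.52 to 0.54, and 0 of 25 contained a 2-fold difference. The study required a 2-fold difference and a corrected p no higher than 0.05, which was applied here to limma p-values adjusted over 159 tested miRs. With both, 0 of 5 guide strands were called at each time. The background was 6.92% of the tested miRs at 0 h, 5.03% at 2 h, 18.2% at 24 h, 13.8% at 48 h and 18.2% at 7d.

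With the adjusted p alone, 10 of the 25 comparisons passed, 9 of them lower and 1 higher in IR. At 0 h and 2 h, 0 of 5 guide strands passed (background 12.6% and 7.55%), and 0 of 5 had an unadjusted p under 0.05 by limma. Under the exact permutation test 0 of 5 passed as well, where only 7 of the 159 tested miRs passed at 0 h and 0 at 2 h. At 0 h, 4 of 5 passed, all lower in IR, with the 75th percentile over all miRs and in the authors' table. Of all miRs, 84 of 159 and 77 of 211 passed there, and the median log2 fold changes were −0.29 and −0.25. At 24 h, 3 of 5 were lower (background 35.8%) and 1 of 5 was higher in IR (background 24.5%), so 4 of 5 passed where 60.4% of the tested miRs did. Leaving out 1 array brought this count to 1 (IR replicate 3) or 2 (IR replicates 1, 2 and 5, sham control replicates 4 and 6). It was 1 with slide as a fixed block, where 54 of the 159 tested miRs passed, and 2 with slide as a random block, where 85 did. At 48 h, 3 of 5 were lower (background 35.2%), and at 7d, 3 of 5 were lower (background 39.6%). The count at 48 h was 0 by the exact permutation test and with only the 12 arrays compared, where 61 of the 159 tested miRs passed in each. It was 5 with the 75th percentile over all miRs, where 96 passed. In either direction, the background was 54.7% at 48 h and 59.7% at 7d, close to the 3 of 5 seen in the family.

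The median log2 fold change of the 5 guide strands was −0.01 at 0 h, −0.04 at 2 h, −0.21 at 24 h, −0.23 at 48 h and −0.28 at 7d. That of the 159 tested miRs also fell below 0, at −0.13, −0.15 and −0.15 for the last 3 times. Relative to it, the median of the family lay at −0.08 at 24 h, −0.08 at 48 h and −0.13 at 7d. Relative to the median of the 57 miRs detected on all arrays, as the guide strands were, it lay at −0.20, −0.13 and −0.18. These distances were not tested.

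**Figure D1:**
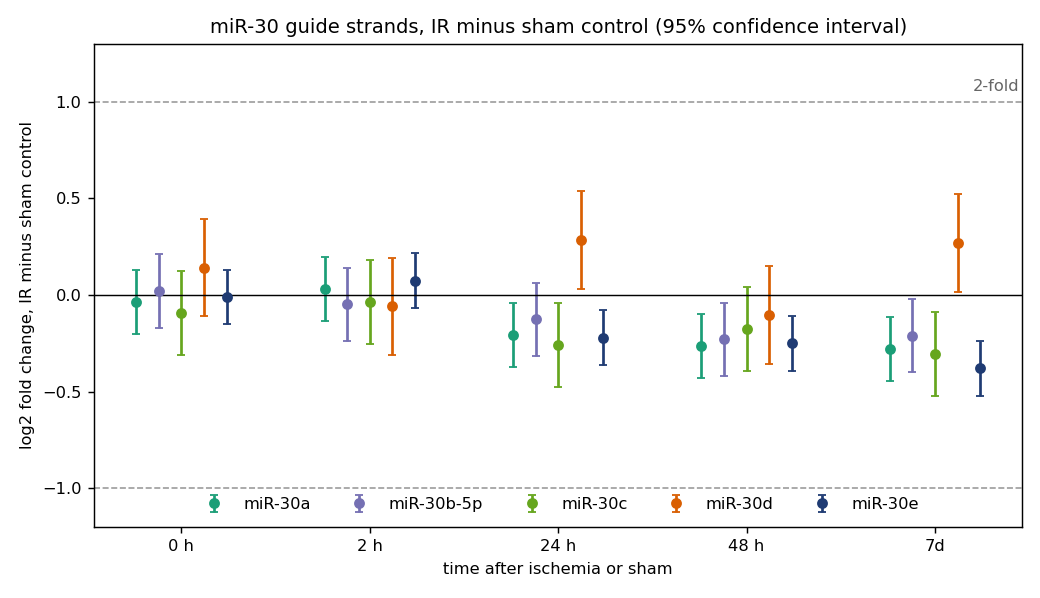
Log2 fold change, IR minus sham control (vertical axis), of the 5 miR-30 guide strands at the 5 times (horizontal axis), with points for the limma estimates, bars for 95% confidence intervals and dashed lines at 2-fold. All intervals lie inside the dashed lines, and at 24 h and 7d miR-30d lies above 0 while the other 4 lie below.

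MiR-30e had the largest fitted difference of the family, although with normexp background correction it was 0.12 at 24 h, 0.037 at 48 h and 0.16 at 7d. With normexp (offset 50), the median of all tested miRs was also above 0, at 0.87, 0.85 and 1.13 for these times. The median of the guide strands lay −0.75, −0.81 and −0.98 from it. At 24 h its lowest, median and highest log2 signals were 7.91, 7.997 and 8.11 on the IR arrays and 8.11, 8.22 and 8.35 on the sham control arrays. The groups overlapped at their edges, where 1 IR array lay above the lowest sham control array. The difference, IR minus sham control, was −0.22 (limma SE 0.07, adjusted p = 0.00686).

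At 48 h, miR-30e lay at 7.80, 7.96 and 8.18 in IR and at 8.06, 8.15 and 8.64 in sham control, a difference of −0.25 (limma adjusted p = 0.00255). The groups overlapped, and the value of 8.64 came from 1 array, replicate 1 of the sham control group. Without that array the log2 fold change was −0.16 (limma adjusted p = 0.0198). The call at 48 h was lost with only the 12 arrays compared (limma adjusted p = 0.132) and by the exact permutation test (adjusted p = 0.0709). Within the 3 scans the difference at 48 h was −0.61, −0.19 and 0.05, so the sign did not hold in each scan.

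At 7d the groups of miR-30e separated. The 6 IR arrays lay at 7.74, 7.87 and 8.02 (lowest, median, highest) and the 6 sham control arrays at 8.21, 8.27 and 8.32. This gave a difference of −0.38 (limma SE 0.07, adjusted p = 1.03e-05). Within the 3 scans it was −0.35, −0.54 and −0.25 with 2 arrays per group in each.

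MiR-30a, which shares all but 1 base with miR-30e, showed a like course, and with normexp its differences were 0.044 at 24 h and 0.11 at 7d. At 24 h it lay at 8.18, 8.28 and 8.40 in IR and at 8.36, 8.51 and 8.57 in sham control, and the ranges overlapped slightly. On the log2 scale IR minus sham control was −0.21 (limma SE 0.08, adjusted p = 0.0288), and it no longer passed without IR replicate 2 (−0.20), IR replicate 3 (−0.19) or sham control replicate 6 (−0.19). At 48 h, miR-30a lay at 8.14, 8.21 and 8.46 in IR and at 8.31, 8.42 and 9.23 in sham control, a difference of −0.26 (limma adjusted p = 0.00603).

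The highest sham control value of miR-30a at 48 h again came from replicate 1, and without that array the log2 fold change was −0.13 and no longer passed (limma adjusted p = 0.0533). Within the scans it was −0.69, −0.19 and 0.09. At 7d, miR-30a lay at 8.10, 8.18 and 8.31 in IR and at 8.40, 8.46 and 8.56 in sham control, without overlap. This gave a difference of −0.28 (limma SE 0.08, adjusted p = 0.0033). Within the 3 scans it was −0.23, −0.37 and −0.23.

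MiR-30c overlapped between IR and sham control at each time. At 24 h it lay at 8.97, 8.99 and 9.41 in IR and at 9.23, 9.29 and 9.54 in sham control, where 5 of 6 IR arrays were below the sham control range. On the log2 scale IR minus sham control was −0.26 (limma SE 0.11, adjusted p = 0.0387). It no longer passed without any 1 of IR replicates 1, 2, 3 and 5 and sham control replicates 1, 4 and 6, at −0.26 to −0.21, and within the 3 scans it was −0.43, −0.26 and 0.10. At 48 h it was −0.18 (limma adjusted p = 0.168). Without replicate 1 of the sham control group, in which miR-30c was lowest at 8.58, this value was −0.31 and passed (limma adjusted p = 0.00701), as it did without IR replicate 6 (−0.27).

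At 7d, miR-30c lay at 8.85, 9.001 and 9.34 in IR and at 9.26, 9.37 and 9.49 in sham control. Of the IR arrays, 4 of 6 were below the sham control range, and the log2 fold change was −0.30 (limma SE 0.11, adjusted p = 0.0135).

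MiR-30b-5p passed at 48 h alone. It lay at 7.18, 7.32 and 7.76 in IR and at 7.11, 7.63 and 7.88 in sham control, a difference of −0.23 (limma SE 0.09, adjusted p = 0.0395). The lowest of all 12 arrays was a sham control array, replicate 1, and without it the log2 fold change was −0.33 (limma adjusted p = 0.00149). Without any 1 of IR replicates 1 to 4 or sham control replicates 3 to 6 it no longer passed, at −0.23 to −0.17. At 24 h the log2 fold change of miR-30b-5p was −0.13 (limma adjusted p = 0.242). At 7d it was −0.21 (limma adjusted p = 0.0503), with IR arrays at 7.34, 7.48 and 7.71 against sham control arrays at 7.63, 7.70 and 7.82, and it passed without any 1 of IR replicates 5 and 6 and sham control replicates 1 and 5 (−0.25 to −0.23).

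MiR-30d was the member with the opposite sign. At 24 h it lay at 7.76, 7.89 and 8.08 in IR and at 7.41, 7.64 and 7.83 in sham control, and all 6 IR arrays were above the sham control median although the ranges overlapped. This gave a difference of 0.28 (limma SE 0.13, adjusted p = 0.0473), but it was −0.029 with the 75th percentile over all miRs, −0.028 with quantile normalization and −0.19 with array brightness as a covariate, and −0.070 in the authors' table. It also no longer passed when any 1 of 8 of the 12 arrays was left out (IR replicates 1, 3, 4, 5 and 6 and sham control replicates 2, 4 and 5), with values of 0.24 to 0.30. At 48 h it was −0.10 (limma adjusted p = 0.504), and 0.09 (limma adjusted p = 0.411) without replicate 1 of the sham control group, which held the highest value at 8.76.

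At 7d, miR-30d lay at 7.69, 7.81 and 7.99 in IR and at 7.43, 7.49 and 7.89 in sham control. Of the sham control arrays, 1 (replicate 5) lay within the IR range. On the log2 scale IR minus sham control was 0.27 (limma SE 0.13, adjusted p = 0.0596). Without that array it was 0.34, and 5 of 5 guide strands then passed the adjusted p. The level of miR-30d ran against the brightness of the arrays, with a Pearson r of −0.59 over the 30 sham control arrays and −0.64 over the 30 IR arrays, given as a description. For miR-30e the same r was 0.01 and 0.43.

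**Figure D2:**
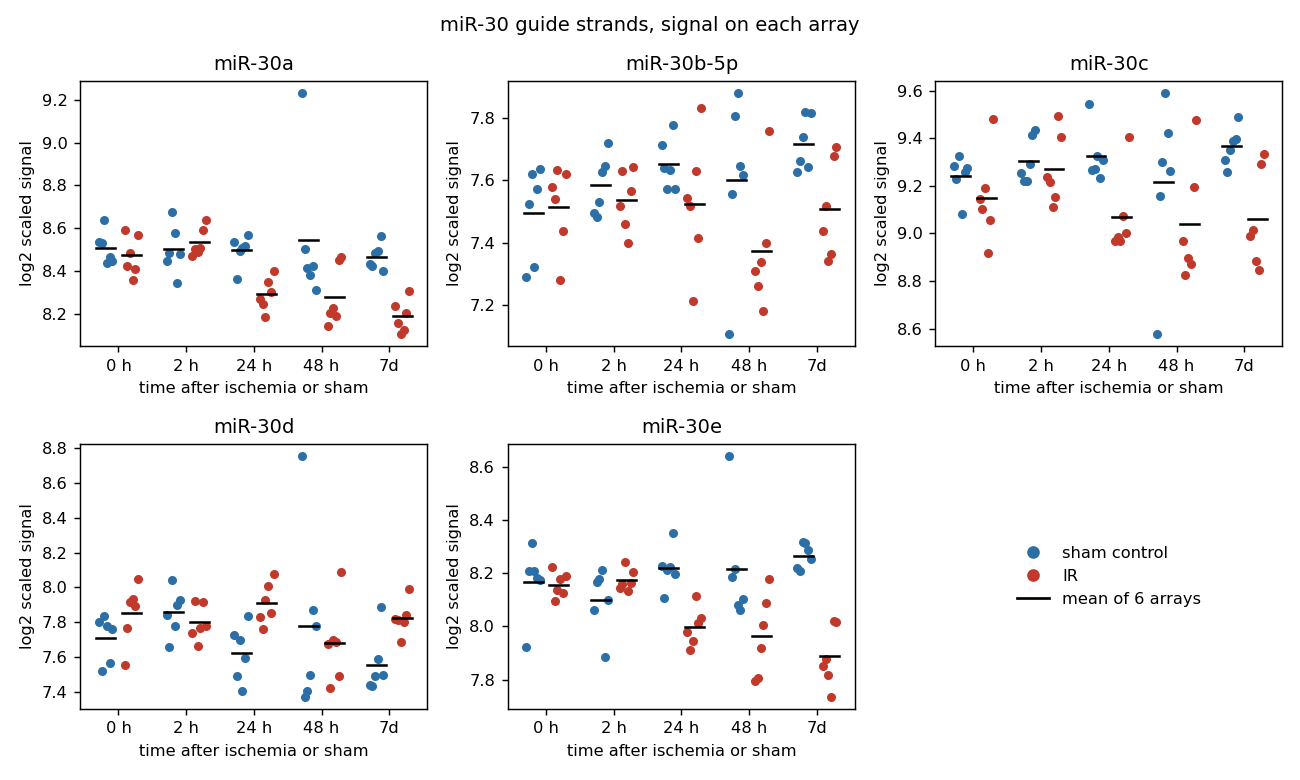
Log2 scaled signal (vertical axis) of each miR-30 guide strand on each array, by time (horizontal axis), with blue points for sham control, red points for IR and a black line for the mean of 6 arrays. At 7d the IR arrays of miR-30a and miR-30e lie below all sham control arrays, and at 48 h 1 sham control array lies far above the others for miR-30a, miR-30d and miR-30e.

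Non-overlap of IR and sham control was seen for 0 of 5 guide strands at 24 h (background 34%) and 0 of 5 at 48 h (background 15.1%). At 7d it was seen for 2 of 5, miR-30a and miR-30e, both lower in IR (background 41.5% in either direction and 26.4% lower).

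Without array brightness in the fit, the guide strands did not all move alike. Their differences were compared on the same array, because the scaling of an array cancels in the difference of 2 miRs. The size of such a difference also carries the brightness of the probes, so only its shift between IR and sham control is read. A dependence of a miR on array brightness does not cancel. With brightness as a covariate, miR-30a, miR-30c and miR-30d had log2 fold changes of −0.29, −0.28 and −0.19 at 24 h. At 7d those of miR-30c and miR-30d were −0.33 and −0.30. IR and sham control arrays shared no range of brightness at these times, so this fit cannot tell IR from brightness. The part of brightness in the shifts of pairs was not tested. For miR-30d minus miR-30e at 24 h, the 6 IR arrays lay between −0.16 and 0.04 and the 6 sham control arrays between −0.82 and −0.36. The groups did not overlap, and the shift was 0.51 on the log2 scale (exact two-sided permutation test, adjusted p = 0.0101 over 7980 tests).

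At 7d, miR-30d minus miR-30e lay between −0.18 and 0.07 in IR and between −0.83 and −0.40 in sham control, again without overlap. The shift was 0.65 (exact two-sided permutation test, adjusted p = 0.0101). The exact test cannot give an unadjusted p below 0.00216, which was reached here. Within the 3 scans, the shift was 0.41, 0.60 and 0.41 at 24 h and 0.73, 0.74 and 0.48 at 7d.

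Of the 10 pairs of guide strands, 4 passed at 24 h (background 56% of 1596 pairs of miRs detected on all arrays) and 5 at 7d (background 64%). At 0 h, 2 h and 48 h, 0 of 10 pairs passed (background 14.3%, 11.3% and 32.4%), and 0 of 10 had an unadjusted p under 0.05 by the exact permutation test. Without IR replicate 1 or 6 at 0 h, 2 and 1 pairs passed. With same-numbered arrays as a replicate block, the miR-30d pairs at 24 h and 7d had an adjusted p of 0.0866 to 0.138 (exact sign-flip permutation). The size of their shifts is the same by construction, because this block changes the p alone. With 6 replicates per group, the smallest p of this sign-flip test had an adjusted p of 0.0866. No pair of miRs could therefore pass it, and its count of 0 of 10 pairs at both times decides nothing. The 4 pairs at 24 h were those of miR-30d with each of the other guide strands. The shifts of miR-30a, miR-30b-5p and miR-30c minus miR-30d were −0.49 (adjusted p = 0.0101), −0.41 (adjusted p = 0.0225) and −0.54 (adjusted p = 0.0101) by the exact permutation test.

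At 7d the same 4 pairs passed, with shifts of −0.55 for miR-30a (adjusted p = 0.0101), −0.48 for miR-30b-5p (adjusted p = 0.017) and −0.57 for miR-30c (adjusted p = 0.0101), each minus miR-30d, by the exact permutation test. With normexp background correction, miR-30b-5p minus miR-30d no longer passed, at −0.078 at 24 h and −0.16 at 7d. The fifth was miR-30b-5p minus miR-30e with a shift of 0.17 (exact permutation test, adjusted p = 0.017). Groups did not overlap in 3 of 10 pairs at 24 h (background 38%) and 3 of 10 at 7d (background 47.7%), those of miR-30d with miR-30a, miR-30c and miR-30e. The share of pairs that passed was thus below that of all pairs at both times.

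MiR-30a and miR-30e, which differ at 1 base, shifted against each other by 0.01 at 24 h (exact permutation test, adjusted p = 0.807) and 0.10 at 7d (exact permutation test, adjusted p = 0.0628). MiR-30b-5p and miR-30d, whose genes lie side by side, were among the pairs that passed. MiR-30c and miR-30e shifted by −0.04 at 24 h (exact permutation test, adjusted p = 0.788) and 0.08 at 7d (exact permutation test, adjusted p = 0.299).

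**Figure D3:**
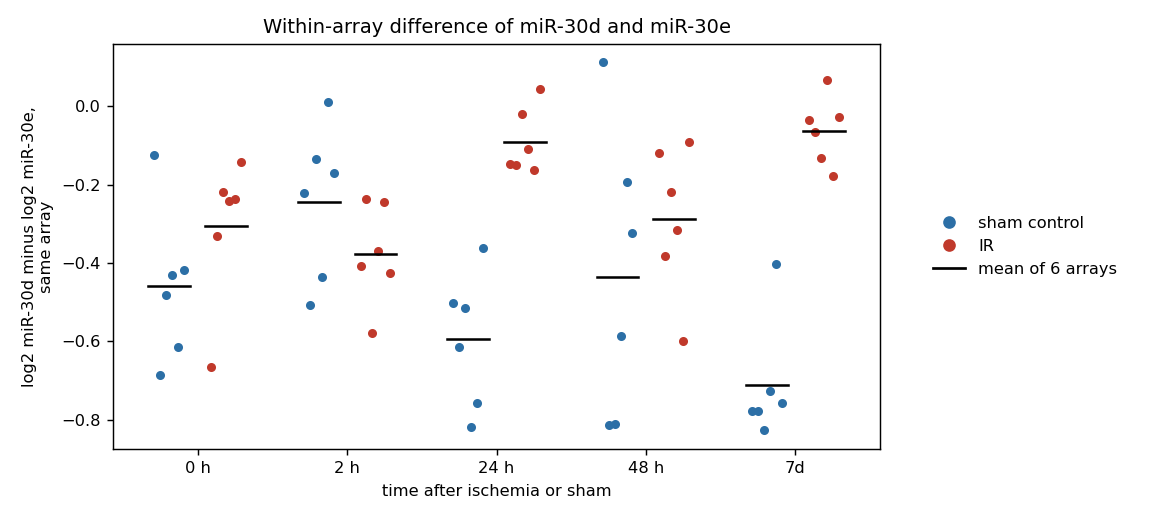
Log2 signal of miR-30d minus log2 signal of miR-30e on the same array (vertical axis) by time (horizontal axis), with blue points for sham control, red points for IR and a black line for the mean of 6 arrays. At 24 h and 7d the IR arrays lie above all sham control arrays, and at 0 h, 2 h and 48 h the groups overlap.

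The probes of each guide strand were also read apart, from their mean processed signal and without a test. In 15 of 15 combinations of a guide strand and a time at 24 h, 48 h and 7d, both probes had the same sign, and over all times this held for 23 of 25. The widest gap between the probes of a miR was 0.2 on the log2 scale, for miR-30a at 7d, where the probe of 15 bases gave a difference of −0.51 and that of 16 bases −0.31. For miR-30d at 24 h, the probe of 13 bases gave 0.21 and that of 14 bases 0.3. No spot of the guide strand probes was saturated.

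The effect of IR changed with time for miR-30e, by an F test over the 5 times in limma (F = 6.96, adjusted p = 0.00123, background 39%). From 2 h to 24 h its log2 fold change moved by −0.30 (limma SE 0.10, adjusted p = 0.0227, background 23.9%). Without sham control replicate 5 of 2 h this change was −0.25 (limma adjusted p = 0.0559). With slide as a fixed block, neither the F test (F = 2.74, adjusted p = 0.117) nor the change (adjusted p = 0.0777) passed, and with normexp F was 0.17 (adjusted p = 0.958 by limma). The other 4 guide strands did not pass this F test, with rno-miR-30a nearest to it (F = 2.94, adjusted p = 0.0681 by limma). It passed without any 1 of 5 arrays, IR replicates 5 and 6 and sham control replicates 1 and 6 at 48 h and sham control replicate 3 at 2 h, with F from 3.25 to 5.26. MiR-30d moved by 0.34 from 2 h to 24 h (limma SE 0.18, adjusted p = 0.143).

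In the sham control groups, 0 of 5 guide strands passed the F test over time in limma (background 5.66%), and 0 of 5 had an unadjusted p under 0.05. Against 0 h, the difference nearest to the threshold was that of miR-30b-5p at 7d, which was 0.22 (limma SE 0.09, adjusted p = 0.118, background 10.1%).

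The 10 group means of miR-30e ran from 8.27 ± 0.05 in sham control at 7d to 7.89 ± 0.11 in IR at 7d (SD, n = 6). IR at 24 h (8.00 ± 0.07), 48 h (7.97 ± 0.15) and 7d were the 3 lowest (SD, n = 6). Neighbors in this order differed by less than their pooled SD, except for the step of 0.1 from sham control at 2 h to IR at 24 h. For miR-30a the same 3 IR groups were lowest, and the step above its pooled SD was that of 0.18 from sham control at 7d (8.47 ± 0.06) to IR at 24 h (8.29 ± 0.08; SD, n = 6). In the order of miR-30b-5p, miR-30c and miR-30d no step exceeded the pooled SD. MiR-30d was highest in IR at 24 h (7.91 ± 0.12) and lowest in sham control at 7d (7.56 ± 0.17; SD, n = 6).

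The array held 6 passenger strands of the miR-30 hairpins. MiR-30a*, miR-30b-3p, miR-30c-2* and miR-30e* passed the detection filter, whereas miR-30c-1* and miR-30d*, with detection on 14 and 4 of 60 arrays, did not. Those 4 passed it through sham control groups alone, because no IR group detected any of them on 6 of 6 arrays. Their limma p-values for a lower signal in IR depend in part on this filter and serve as a description. Unlike the guide strands, the passenger strands were near the detection limit. MiR-30a* was detected on 30 of 30 sham control arrays and 11 of 30 IR arrays, and miR-30e* on 29 and 8. Detection over the whole array also differed. Of the 350 miRs, 78 to 127 were detected per IR array at 24 h, against 126 to 229 per sham control array. These counts were 106 to 171 against 126 to 208 at 48 h and 59 to 125 against 162 to 232 at 7d.

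At 24 h, miR-30a*, miR-30c-2* and miR-30e* were detected on 0 of 6 IR arrays each, and on 6, 3 and 6 of 6 sham control arrays. The limma differences were lower for these 3 of the 4 tested (miR-30a*, adjusted p = 6.74e-06; miR-30c-2*, adjusted p = 0.0351; miR-30e*, adjusted p = 4.26e-07), but IR has only an upper bound there. MiR-30a* was at least 1.145-fold lower in IR, by its mean in sham control over the mean of the lowest detected signals of the IR arrays. For miR-30c-2* and miR-30e*, this bound was under 1-fold, so no fold is given. At 7d the same 3 were again detected on 0 of 6 IR arrays and on 6 of 6 sham control arrays, the limma differences passed (adjusted p = 1.04e-07, 0.009 and 3.51e-07 in that order), and the bounds were under 1-fold. With normexp background correction the sign of these differences was reversed, where the median of all tested miRs was 0.87 at 24 h and 1.13 at 7d. With array brightness as a covariate, miR-30a* at 24 h (adjusted p = 0.052), miR-30c-2* at 24 h (adjusted p = 0.829) and 7d (adjusted p = 0.797) and miR-30e* at 7d (adjusted p = 0.163) no longer passed limma, and miR-30c-2* was also lost with slide as a fixed block at both times. Brightness and treatment cannot be told apart in the former fit at these times. The call of miR-30c-2* at 24 h was lost without any 1 of 7 arrays, 5 of IR (replicates 1, 2, 3, 5 and 6) and 2 of sham control (replicates 2 and 6), at −0.44 to −0.36.

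At 48 h, when 2, 1 and 1 of 6 IR arrays detected miR-30a*, miR-30c-2* and miR-30e*, the limma differences were again lower (adjusted p = 2.17e-06, 0.00276 and 4.08e-05), but most IR signals were not above background and no fold is given. Normexp turned the sign of all 3, where the median of all tested miRs was 0.85. MiR-30c-2* was lost with slide as a fixed block (limma adjusted p = 0.165). MiR-30b-3p did not pass at any time. Its log2 fold change was 0.42 at 24 h (limma SE 0.19, adjusted p = 0.0508) and 0.35 at 7d (limma adjusted p = 0.098). Detection was on 2 and 1 of 6 IR arrays. At 24 h it passed as higher without any 1 of IR replicates 1, 2 and 6 and sham control replicates 3 and 6 (0.45 to 0.50).

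MiR-384-5p shares the seed of the family and comes from another hairpin on chromosome X (GRCr8, chrX:74490889-74490971). It was detected on 30 of 30 sham control and 25 of 30 IR arrays. At 24 h its log2 signals (lowest, median, highest) were 5.52, 6.04 and 6.12 in IR and 6.29, 6.44 and 6.57 in sham control, and at 7d they were 5.62, 5.91 and 6.14 against 6.45, 6.54 and 6.79. The groups did not overlap at either time (background 34% at 24 h and 41.5% at 7d). It was detected on 4 of 6 IR arrays at 24 h and 3 of 6 at 7d, so the separation rests in part on signals below detection.

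The log2 fold change of miR-384-5p was −0.48 at 24 h (limma SE 0.13, adjusted p = 0.00145), −0.59 at 48 h (limma adjusted p = 0.000138) and −0.70 at 7d (limma adjusted p = 9.31e-06). At 0 h and 2 h it was −0.06 and −0.15, and neither passed. With array brightness as a covariate it was −0.14 at 24 h (limma adjusted p = 0.59) and −0.29 at 7d (limma adjusted p = 0.296), and at 48 h it was lost by the exact permutation test (adjusted p = 0.0592). Brightness and treatment cannot be told apart in the covariate fit at 24 h and 7d. With normexp background correction, the sign of its log2 fold change turned at 24 h, 48 h and 7d, when the median of all tested miRs was also above 0. The F test of its effect over time passed (F = 4.65, adjusted p = 0.0102 by limma), but not with slide as a fixed block (adjusted p = 0.515) or a random block (adjusted p = 0.0978), with brightness (adjusted p = 0.191) or with normexp (adjusted p = 0.305).

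**Figure D4:**
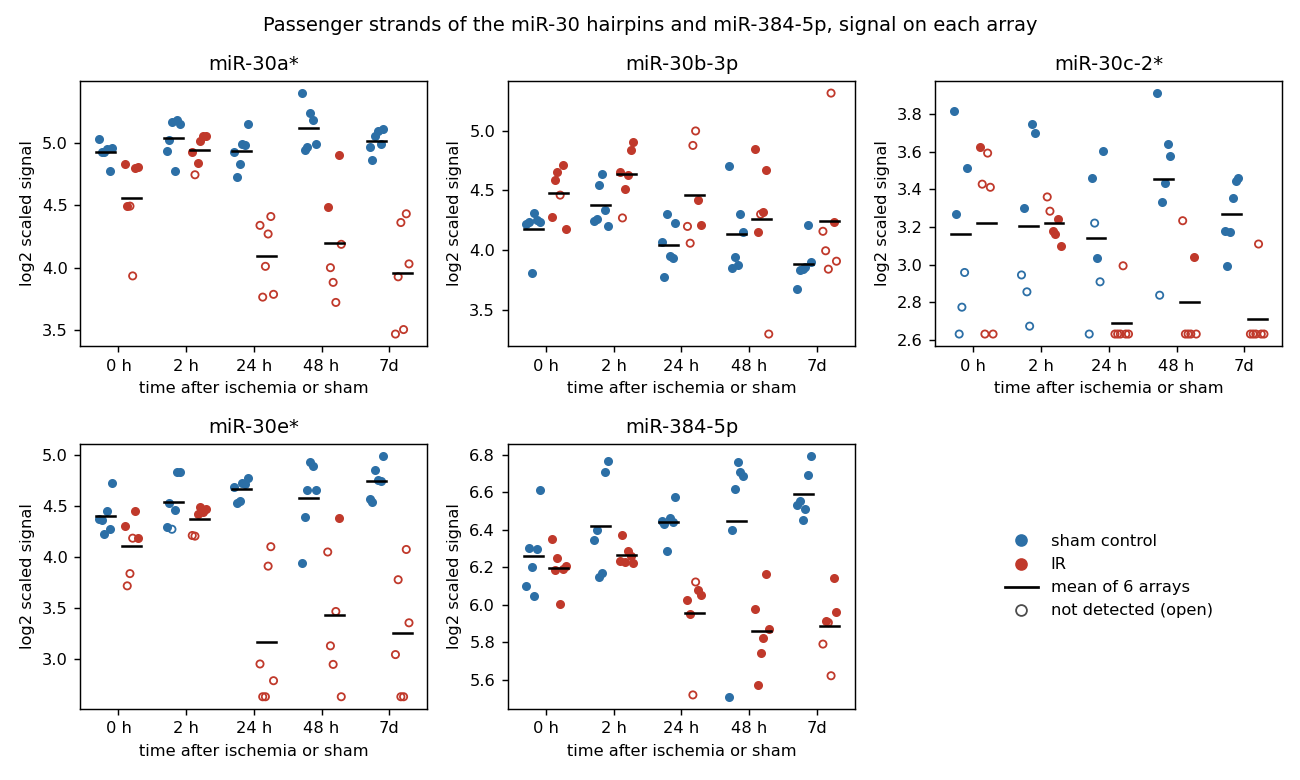
Log2 scaled signal (vertical axis) of 4 passenger strands and of miR-384-5p on each array, by time (horizontal axis), with blue for sham control, red for IR, open points for arrays on which the miR was not detected and a black line for the mean of 6 arrays. At 24 h and 7d all IR points of miR-30a*, miR-30c-2* and miR-30e* are open, while those of miR-384-5p lie below the sham control points.

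For comparison, the guide strands of the let-7 family (8 tested) had a median log2 fold change of −0.01 at 24 h, −0.10 at 48 h and 0.03 at 7d. At 24 h 1 of these 8 passed, as higher in IR, at 48 h 0 of 8 passed, and at 7d 2 passed in each direction. Of the 3 miR-29 guide strands, 1 passed at 24 h (higher), 2 at 48 h (in opposite directions) and 2 at 7d (both lower), and their medians were −0.19, −0.03 and −0.40. Differences between these families and miR-30 were not tested.

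Over the 10 group means, the 3 tested miRs whose pattern was most like the mean of the 5 guide strands were rno-miR-352 (Pearson r = 0.975), rno-miR-434 (r = 0.964) and rno-miR-495 (r = 0.938), out of 149 candidates. These correlations describe 10 groups that share array brightness and scaling. The log2 fold change of rno-miR-434, which like the guide strands was detected on all arrays, was −0.47 at 48 h and −0.42 at 7d. Because rno-miR-434 was chosen by its pattern over these same groups, the values are a description and no p is given.

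The sizes above depend on how arrays were scaled and background was corrected. Over 17 settings other than leaving out an array or omitting normalization, the log2 fold change of miR-30e lay between −0.58 and 0.12 at 24 h and between −0.63 and 0.16 at 7d. Its adjusted p passed under 16 settings at each of these times. For miR-30c the sign was negative under all 17, from −0.61 to −0.20 at 24 h and from −0.56 to −0.17 at 7d, and it passed under 15 and 14. MiR-30d ran from −0.19 to 0.41 at 24 h and from −0.30 to 0.59 at 7d and passed under 7 at each time, each of them higher in IR. MiR-30b-5p ran from −0.48 to 0.33 at 24 h, where 3 settings passed.

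**Figure D5:**
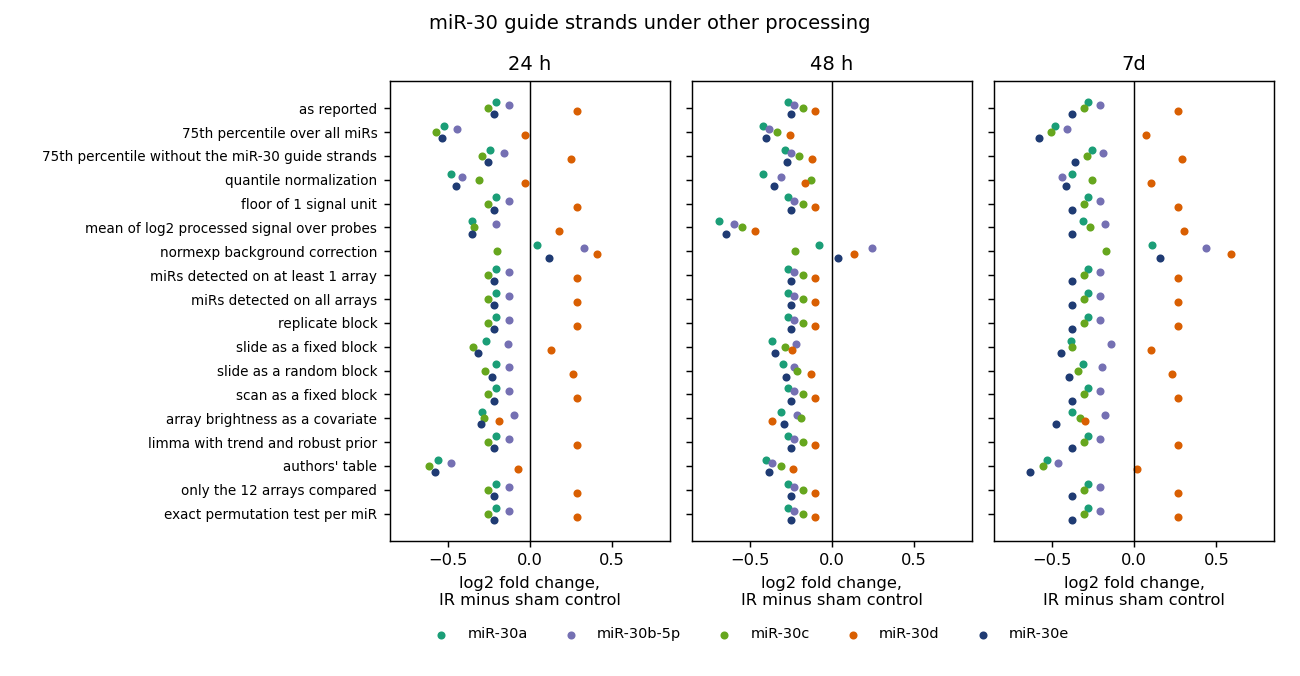
Log2 fold change, IR minus sham control (horizontal axis), of the 5 miR-30 guide strands at 24 h, 48 h and 7d, as reported and under 17 other settings (rows; the setting without normalization is left out because its values lie off the scale). MiR-30d lies to the right of miR-30a, miR-30c and miR-30e in all rows at 24 h, whereas the place of 0 among the 5 members moves with the scaling and with normexp background correction.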

How the data were processed

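Total RNA (100 ng) of whole rat retinas was labelled with Cy3 and hybridised to Agilent rat miRNA arrays, 1 rat per array. The deposited intensity values are 1-colour signals that the authors extracted with Feature Extraction 9.5.3.1, background subtracted but not normalized between arrays. Their probe positions refer to rn4. The authors' table of deposited log2 values (211 miRs, 210 matched by name) equals log2 total signal minus a constant per array (column medians −0.856 to −0.409) and served as an alternative. The methods of the study describe a scaling of each chip to its 75th percentile.

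Total gene signals were scaled to the 75th percentile of the 57 miRs with a detection call on every one of 60 arrays, floored at 6.201 signal units and log2 transformed. The 159 miRs that had a detection call on 6 of 6 arrays in 1 or more of 10 groups were tested with limma 3.58.1 in R 4.3.3 with all groups in the fit, and p-values were adjusted by Benjamini-Hochberg. Pairs of guide strands were tested on within-array differences by exact two-sided permutation, adjusted over 1596 pairs of miRs at 5 times. The limma fit and the exact permutation p were tested on simulated data.

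Groups came from the labels. The deviations of same-numbered IR and sham control arrays correlated above 0.1 in 15 of 30 pairs, not in all, so numbers were not used as pairs. The numbers partly follow the scan. Named were the guide strands, the passenger strands, miRs with the same seed and the 3 tested miRs most like the mean of the guide strands. The members and lists were chosen with earlier results of these data known. The number of arrays limits the precision.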

Additional observations from a re-analysis of the deposited data

Results flagged for a closer look

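In 8 of 50 combinations of a guide strand and a group, 1 array stood further from the other 5 than Dixon's 95% limit for 6 values, a limit that chance passes in about 1 of 20 groups. Replicate 1 of the sham control group at 48 h was the highest for miR-30a (9.2316), miR-30d (8.7556) and miR-30e (8.6431). At 24 h, miR-30a was lowest in sham control replicate 2 (8.3622), and miR-30c was highest in IR replicate 6 (9.4053) and in sham control replicate 1 (9.5447). MiR-30d was highest in sham control replicate 5 at 7d (7.8862), and miR-30e was lowest in sham control replicate 1 at 0 h (7.9235).

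The IR effect differed between times for miR-30e and miR-384-5p. From 2 h to 24 h the effect on miR-30e moved by −0.2958 (adjusted p = 0.0227 by limma), and its F over the 5 times was 6.955 (adjusted p = 0.00123 by limma). With slide as a fixed block both calls were lost (limma adjusted p = 0.0777 and 0.117). For miR-384-5p, F was 4.647 (adjusted p = 0.0102 by limma), and this call was lost with slide as a fixed (adjusted p = 0.515) or random block (adjusted p = 0.0978), with brightness (adjusted p = 0.191) and with normexp (adjusted p = 0.305).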

How the results depend on the processing

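Of the single values under settings other than leaving out an array, 849 were the same, 75 gained and 52 lost the adjusted p, 18 moved beyond the replicate SD and 36 changed sign with a call on either side. The cause was not tested. All guide strands were detected on each array, so detection did not limit them, whereas passenger strands lay near background.

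The guide strands past the adjusted p at 0 h were 4 with the 75th percentile over all miRs, 1 with quantile normalization, 5 without normalization and 4 in the authors' table. Of all miRs, 84 of 159, 51 of 158, 126 of 159 and 77 of 211 passed, in that order. At 24 h the guide strands that passed were 2 with normexp, 1 with slide as a fixed block, 2 with slide as a random block and 1 with brightness as a covariate. Of the 159 tested miRs, 130, 54, 85 and 29 passed, in that order. At 48 h, 5 guide strands passed with the 75th percentile over all miRs, without normalization, with the probe mean and in the authors' table. Of all miRs, 96, 136 and 117 of 159 and 106 of 211 passed there. With normexp 1 guide strand passed (129 of 159 miRs), and with only the 12 arrays compared or the exact permutation test 0 passed (61 of 159 miRs each). At 7d, 5 guide strands passed without normalization, with the scan block, with only the 12 arrays or the exact permutation test. Of the 159 tested miRs, 152, 101, 96 and 97 passed, in that order. With replicate number as a replicate block, 5 guide strands passed at 7d (101 of 159 miRs). The 0 pairs at 24 h and 0 at 7d under this block decide nothing, because no pair of miRs could pass its sign-flip test. Without normalization, 4 guide strands at 0 h and 5 at 24 h, 48 h and 7d passed 2-fold. Of the 159 tested miRs, 84, 139, 121 and 151 did so at these 4 times. Pairs that passed were 7 at 0 h, 8 at 24 h and 8 at 7d with normexp, and 1 at 2 h with quantile normalization. The share of all pairs that passed with normexp or quantile normalization was not counted. Leaving out each array gave 1 to 4 guide strands at 24 h and 3 to 5 at 7d, and 0 to 2 pairs at 0 h.

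Signs turned with the 75th percentile over all miRs (miR-30b-5p 0 h −0.30, miR-30d 24 h −0.029), quantile normalization (miR-30d 24 h −0.028), brightness (miR-30d 24 h −0.19), the authors' table (miR-30b-5p 0 h −0.29, miR-30d 24 h −0.070) and the probe mean (miR-30c-2* 24 h 0.75, 7d 0.65). Without normalization they turned for miR-30b-5p (0 h −1.04), miR-30d (0 h −0.92, 24 h −1.87, 7d −2.31, change from 2 h to 24 h −1.84) and miR-30b-3p (24 h −1.72, 48 h −0.87, 7d −2.14). With normexp they turned at 24 h for miR-30a (0.044), miR-30e (0.12), miR-30a* (0.94), miR-30c-2* (1.22), miR-30e* (0.98) and miR-384-5p (0.55), at 48 h for miR-30b-5p (0.25), miR-30e (0.037), miR-30a* (0.91), miR-30c-2* (1.23), miR-30e* (1.03) and miR-384-5p (0.46), and at 7d for miR-30a (0.11), miR-30b-5p (0.43), miR-30e (0.16), miR-30a* (1.29), miR-30c-2* (1.69), miR-30e* (1.37) and miR-384-5p (0.68), and for the change of miR-30e from 2 h to 24 h (0.091). The median of all tested miRs at 24 h was −0.42 with the 75th percentile over all miRs, −0.36 with quantile normalization, −2.07 without normalization and 0.87 with normexp, against −0.13 as reported, and at 7d it was 1.13 with normexp, where the median of the guide strands lay −0.98 from it.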
